A study of Mus musculus with 6 samples.

Results

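The genes described here are the small nucleolar RNA genes (symbols beginning Snord or Snora), the Cajal body RNA genes (Scarna) and the RNA subunits of RNase MRP and RNase P (Rmrp and Rpph1). They were taken from the deposited value table as the rows that the platform annotation ties to exactly 1 gene with such a symbol. Genes with several rows were represented by their brightest row. This gave 56 genes of 19938: 31 Snord, 20 Snora and 3 Scarna genes, Rmrp and Rpph1. The members were chosen by symbol, and the only measured value in the choice was the mean signal over all arrays, which settled the row for 6 genes with more than 1. No gene of the imprinted clusters (Snord64, Snord107 and Snord113 to Snord116) had a row to itself.

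The study cultured implantation-stage mouse embryos of the CD1 strain in cavities of different width, to ask how outside mechanical constraint changes them. Embryos were collected at embryonic day 5.0 and kept for 8 hours in narrow cavities, 90 µm across, or in wide cavities, 180 µm across, at the same temperature and gas. Each sample was the total RNA of 30 pooled whole embryos on an Affymetrix Mouse Gene 1.0 ST array, with 3 samples for each cavity, named narrow 1, 2 and 3 and wide 1, 2 and 3 by the numbers in their titles. The samples are described as biological replicates, but nothing in the labels says what the arrays that share a number have in common. No genetic change, transgene or drug was named for either group, and the wide cavity served as the comparison for the narrow one.

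The deposited values are log2 signals, and every level and difference below is on that scale, so a difference of 1 is a doubling. All 6 arrays had medians between 7.62 and 7.67 and correlated with each other at 0.998 or more over genes. The first principal component held 38.5% of the variance and set narrow 1 (-10.6) and wide 1 (-8.01) apart from the other 4 arrays, which lay between 2.76 and 5.87. Defining genes of the labelled tissue were mostly bright. The epiblast gene Pou5f1 lay at the 94.4th percentile of all genes, the extraembryonic ectoderm gene Eomes at the 97.6th and the visceral endoderm gene Apoa1 at the 99.4th. The lowest listed markers of these tissues were Nanog (epiblast) at the 65.3rd, Esrrb (extraembryonic ectoderm) at the 77.4th and Foxa2 (visceral endoderm) at the 65.1st. Genes of neighbouring tissues were mixed. Of 4 measured blood and vessel genes, Ptprc lay lowest, at the 17.4th percentile, and Pecam1 highest, at the 70.9th. Of 6 decidual and stromal genes, Prl8a2 lay lowest, at the 13.5th, and Dcn highest, at the 60.1st.

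Small nucleolar RNAs guide the chemical modification of ribosomal RNA in the nucleolus. Box C/D RNAs (Snord) direct methylation of the ribose by fibrillarin, and H/ACA RNAs (Snora) direct the conversion of uridine to pseudouridine by dyskerin. A few of them serve in cutting the precursor of ribosomal RNA instead of modifying it. Cajal body RNAs guide the same modifications on spliceosomal RNAs. In mammals most of these RNAs are cut out of introns of longer host genes, many of which encode ribosomal proteins or translation factors, while Rmrp and Rpph1 are made by RNA polymerase III from genes of their own.

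By the RefSeq gene table, which matched all 56 symbols, 53 of the genes lie inside the span of a longer gene and 3 (Rmrp, Rpph1 and Snord118) do not. The 53 lie in 43 host genes, and 10 hosts hold at least 2 of them. The start of a host gene is shown because many hosts of small nucleolar RNAs begin transcription at a C followed by a run of pyrimidines, the start that also marks genes of the translation machinery. The lines below give 40 bases before and 20 bases from an annotated start of each of 5 hosts. They are read 5′ to 3′ on the strand of the host from the RefSeq promoter table on GRCm38.p6. Capitals mark an unbroken pyrimidine run that begins with C at the start base.

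Rack1, host of Snord95 and Snord96a, chr11:48800320-48800379, plus strand: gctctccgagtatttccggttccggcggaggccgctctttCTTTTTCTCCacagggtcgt
Rplp2, host of Snora52, chr7:141447611-141447670, plus strand: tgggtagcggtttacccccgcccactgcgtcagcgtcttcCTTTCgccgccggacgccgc
Gas5, host of Snord47, chr1:161035126-161035185, plus strand: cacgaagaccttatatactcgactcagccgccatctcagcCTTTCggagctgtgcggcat
2410006H16Rik, host of Snord49a and Snord49b, chr11:62602837-62602896, plus strand: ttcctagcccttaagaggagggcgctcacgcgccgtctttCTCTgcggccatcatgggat
Snhg3, host of Snora73a and Snora73b, chr4:132353667-132353726, minus strand: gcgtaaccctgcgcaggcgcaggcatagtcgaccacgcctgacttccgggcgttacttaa

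A C at the start followed by at least 4 more pyrimidines (C or T) was present in 6 of the 32 hosts with an entry in that table (18.8%), against 813 of 27025 genes in it (3.01%). The search was made on the gene's own strand, and the run was looked for at annotated start bases only. For a gene with several annotated starts, the longest run was counted, in hosts and in all genes alike. Gas5 has 2 annotated starts, and the one with the longest run is shown. Rack1 carried a run of 10 pyrimidines and Rplp2 and Gas5 runs of 5, while 2410006H16Rik carried 4 and Snhg3 none at the annotated base. These are letters at an annotated start and do not locate the start used in these embryos.

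The first comparison asked whether the small RNA genes differed between embryos in narrow and wide cavities. None of the 56 passed, and neither did any of the 19938 genes (0% called): the smallest adjusted p over all genes was 1.00 (limma, Benjamini-Hochberg over all genes). Most of the small RNA genes lay slightly lower in narrow, 44 of 56 against 49.1% of all genes, and their median difference was -0.072 against 0.001 over all genes. Of 291 microRNA genes, 189 lay lower in narrow too, at a median of -0.026. In pools of whole embryos, fewer cells of a type and less RNA per cell cannot be told apart. A permutation of 3 against 3 samples cannot give a p below 0.1.

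At an unadjusted p under 0.05, 3 of the 56 were lower in narrow (1.72% of all genes) and 0 were higher (1.68% of all genes). Snord49b, a box C/D RNA, measured 10.76, 10.91 and 11.01 in narrow 1 to 3 and 10.98, 11.19 and 11.13 in wide 1 to 3. Narrow 3 reached above wide 1, so the groups overlapped, and the difference was -0.21 ± 0.08 (SE). Snora33, an H/ACA RNA in an intron of the ribosomal protein gene Rps12, measured 8.30, 8.13 and 8.22 in narrow and 8.53, 8.44 and 8.25 in wide, a difference of -0.19 ± 0.08. The groups overlapped, since narrow 1 lay above wide 3. Snora7a, in Rpl32, measured 10.36, 10.29 and 10.55 in narrow and 10.55, 10.56 and 10.55 in wide, with a difference of -0.15 ± 0.07. The 3 wide values lay together and above narrow, the highest narrow value reaching 10.55 as well to this precision. Snora31, in the translationally controlled tumour protein gene Tpt1, was next, with a difference of -0.20 ± 0.09 and narrow 3 (8.03) above wide 3 (7.94). Single arrays weigh on these values: without narrow 2 the difference was -0.10 for Snora7a and -0.13 for Snora31, and without narrow 3 it was -0.31 for Snora31. The 3 genes lower at an unadjusted p became 0 without wide 2, 1 without narrow 2, 9 without narrow 1, 6 without narrow 3 and 5 without wide 3. Those higher became 2 without narrow 1 and 1 without wide 1.

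All 3 narrow values lay below all 3 wide values for 2 of the 56 genes (3.54% of all genes), Snora7a and Snord87, and all 3 lay above for 0 (4.17% of all genes). Among genes higher in narrow, those with the smallest p had small differences. Snora44, in the noncoding host Snhg12, had 0.12 ± 0.11, the largest of the 56, with narrow values of 10.80, 11.05 and 11.25 and wide values of 10.79, 10.90 and 11.05. Snord15b, in Rps3, had 0.08 ± 0.07, Snora74a 0.05 ± 0.08 and Snord35b 0.03 ± 0.06. Each of these 4 overlapped between the cavities. Without narrow 3 the difference of Snora44 was 0.01 and that of Snord15b 0.01, while Snora74a and Snord35b turned negative, at -0.01 and -0.02. Without narrow 1 those of Snora44, Snord15b and Snora74a were 0.24, 0.16 and 0.10. Without wide 1 Snora74a was again negative (-0.03) and Snora44 was 0.06, and without wide 2 Snord35b was negative (-0.01).

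The lower values in narrow were not shared by all same-numbered pairs of arrays. The median difference over the 56 genes was -0.093 between narrow 1 and wide 1, with 46 genes negative, and -0.141 between narrow 2 and wide 2, with 48 negative. Between narrow 3 and wide 3 it was 0.033, with 18 negative. Narrow lay below wide in 3 of 3 pairs for 15 genes (13.9% of all genes) and above in 3 of 3 for 2 (14.8% of all genes). With the replicate number as a block, 11 of the 56 were lower in narrow at an unadjusted p under 0.05 (3.72% of all genes, and 32 of the 291 microRNA genes) and 1, Snora44, was higher (3.54% of all genes). The smallest adjusted p of any of the 56 was then 0.674. Snord49b, Snord38a, Snord49a and Snora33 had the smallest unadjusted p among the 11. Without both arrays numbered 1, 6 were lower and 1 higher at an unadjusted p under 0.05.

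**Figure D1:**
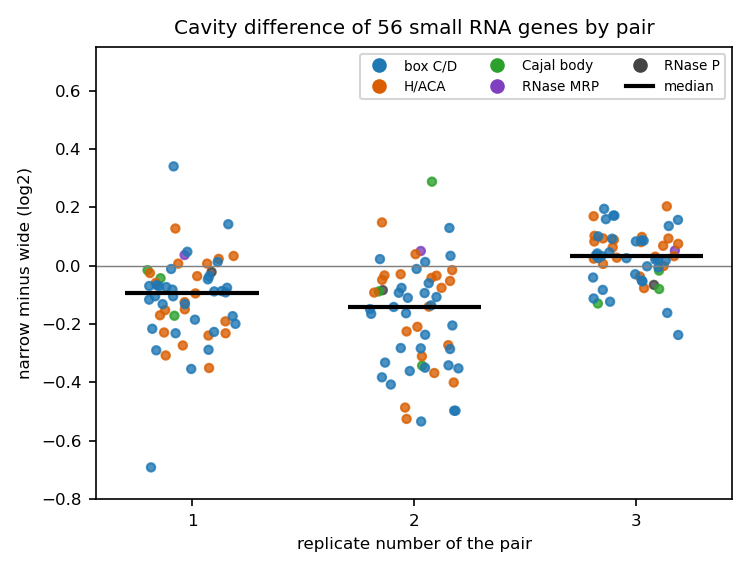
Difference narrow minus wide (log2) of each of the 56 genes in the same-numbered array pairs 1, 2 and 3, coloured by RNA class; the medians are -0.093, -0.141 and 0.033, so the third pair lies on the other side of 0.

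The second comparison asked whether arrays that share a replicate number differ from the others, with cavity in the fit. Each number holds 1 narrow and 1 wide array, so a difference between numbers is not a difference between cavities. An F test over the 3 numbers passed 0 of the 56 genes after adjustment (0.00502% of all genes, 1 gene), and 29 of 56 had an unadjusted p under 0.05 (18.0% of all genes). The arrays numbered 1 stood furthest from the rest. Against the other numbers, 0 of the 56 passed after adjustment (0.0201% of all genes, 4 genes), and the smallest adjusted p, that of Rmrp, was 0.0892. At an unadjusted p under 0.05, 26 of the 56 were higher in number 1 (7.69% of all genes) and 10 were lower (14.4% of all genes). The fit leaves 2 residual degrees of freedom, and its calls depend on how the variance is modelled. With a variance trend over signal and robust shrinkage, the F test passed 24 of the 56 after adjustment (5.68% of all genes) and number 1 against the others passed 28 (8.70% of all genes). Of those 28, 18 were higher in number 1 (4.60% of all genes) and 10 were lower (4.10% of all genes). Among genes at or above the median signal, 18 of 33 passed with the default variance model (14.1% of these genes).

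Number 1 differences of the small RNA genes were spread to both sides of 0. The median size of the number 1 difference was 0.207 over the 56 genes, 0.061 over all genes, 0.080 over 291 microRNA genes and 0.062 over 26 replication-dependent histone genes. A difference of at least 0.3 in size was seen in 18 of the 56 (0.762% of all genes). Both arrays numbered 1 lay above the other 4 for 23 genes (12.2% of all genes) and below them for 10 (19.9% of all genes). Without wide 1, the genes higher at an unadjusted p numbered 17 in place of 26. Without narrow 2, the median number 1 difference was 0.053 in place of 0.111.

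Numbers 2 and 3 had smaller sizes, with medians of 0.079 and 0.113. At an unadjusted p under 0.05, 14 of the 56 differed in number 2 (9.97% of all genes), 1 higher (5.54%) and 13 lower (4.43%). Both arrays numbered 2 lay above the other 4 for 0 genes (7.47% of all genes) and below them for 2 (6.23%), and 1 gene differed by at least 0.3 (0.326%). In number 3, 21 differed at an unadjusted p under 0.05 (12.9% of all genes), 9 higher (8.80%) and 12 lower (4.14%). Both arrays numbered 3 lay above the other 4 for 6 genes (11.8% of all genes) and below them for 3 (6.31%), and 6 genes differed by at least 0.3 (0.361%). After adjustment, 0 of the 56 passed in either number (0.00502% and 0% of all genes). With the variance trend, 1 passed in number 2 (0.637% of all genes) and 8 in number 3 (0.737%). Among genes at or above the median signal, 0 passed in number 2 (0.461% of these genes) and 2 in number 3 (0.150%). The contrasts of the 3 numbers share the same arrays and sum to 0, so they are not independent of each other.

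Some cell type markers moved with the numbers as well. In number 1, 5 of 6 epiblast markers were higher, at a median of 0.053, against 7702 of the 19938 genes. Otx2 (0.27) and Utf1 (0.19) moved most. Fgf5, Sox2 and Pou5f1 had 0.07, 0.04 and 0.02, and Nanog was lower (-0.12). In number 2, 6 of 6 epiblast markers were lower, against 9397 of the 19938 genes. The mean level of the 6 was 11.16 in narrow 1 and 11.22 in wide 1, and between 11.04 and 11.15 in the other 4 arrays. Of 8 visceral endoderm markers, 6 were lower in number 1, at a median of -0.023. Of 6 extraembryonic ectoderm markers, 3 were, at a median of -0.005. Over all genes 12236 of 19938 were lower in number 1, at a median of -0.024, so the visceral endoderm markers lay at that background. In number 2, 7 of the 8 visceral endoderm markers were higher, at a median of 0.024. So were 6 of the 6 extraembryonic ectoderm markers, at a median of 0.040. Over all genes 10541 of 19938 were higher in number 2, at a median of 0.005. The part of the markers in the number differences was not tested.

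The order within number 1 was alike in both cavities. Across the 56 genes, the difference of narrow 1 from narrow 2 and 3 and that of wide 1 from wide 2 and 3 correlated at r = 0.81 (rho = 0.84), a description over genes, which are not independent replicates. The same r was 0.74 for number 3 and 0.28 for number 2. Within a cavity the differences of the numbers sum to 0, so these r values are not separate from that of number 1. Arrays with unlike numbers correlated as well, narrow 2 with wide 3 at 0.58 and narrow 3 with wide 2 at 0.46. Unlike pairs that hold an array numbered 1 lay between -0.83 and -0.47. The genes share the same 6 arrays.

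**Figure D2:**
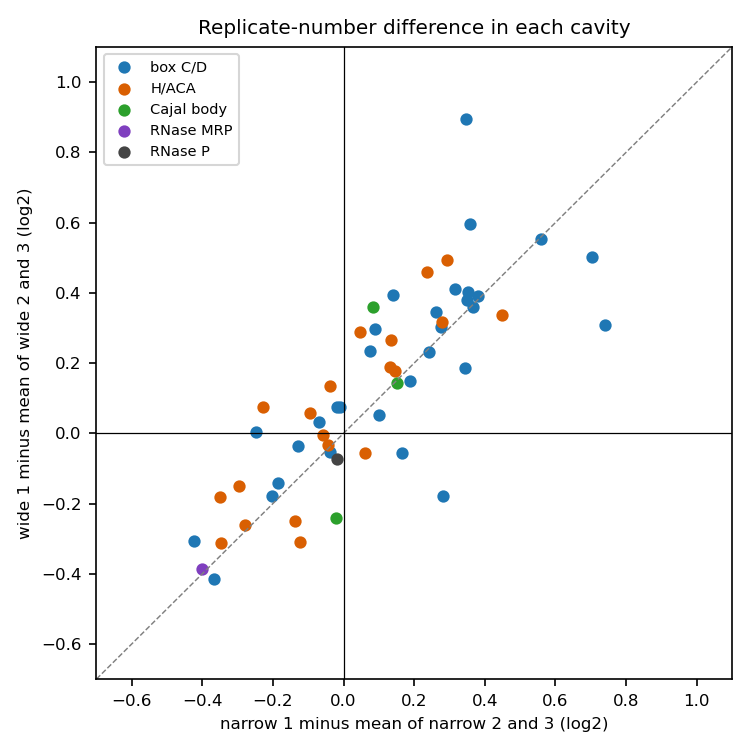
Number 1 difference of the 56 genes within the narrow arrays (horizontal, log2) and within the wide arrays (vertical, log2), coloured by RNA class, with a dashed line of equal values; most points lie in the quadrants where both cavities have the same sign, at r = 0.81.

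**Figure D3:**
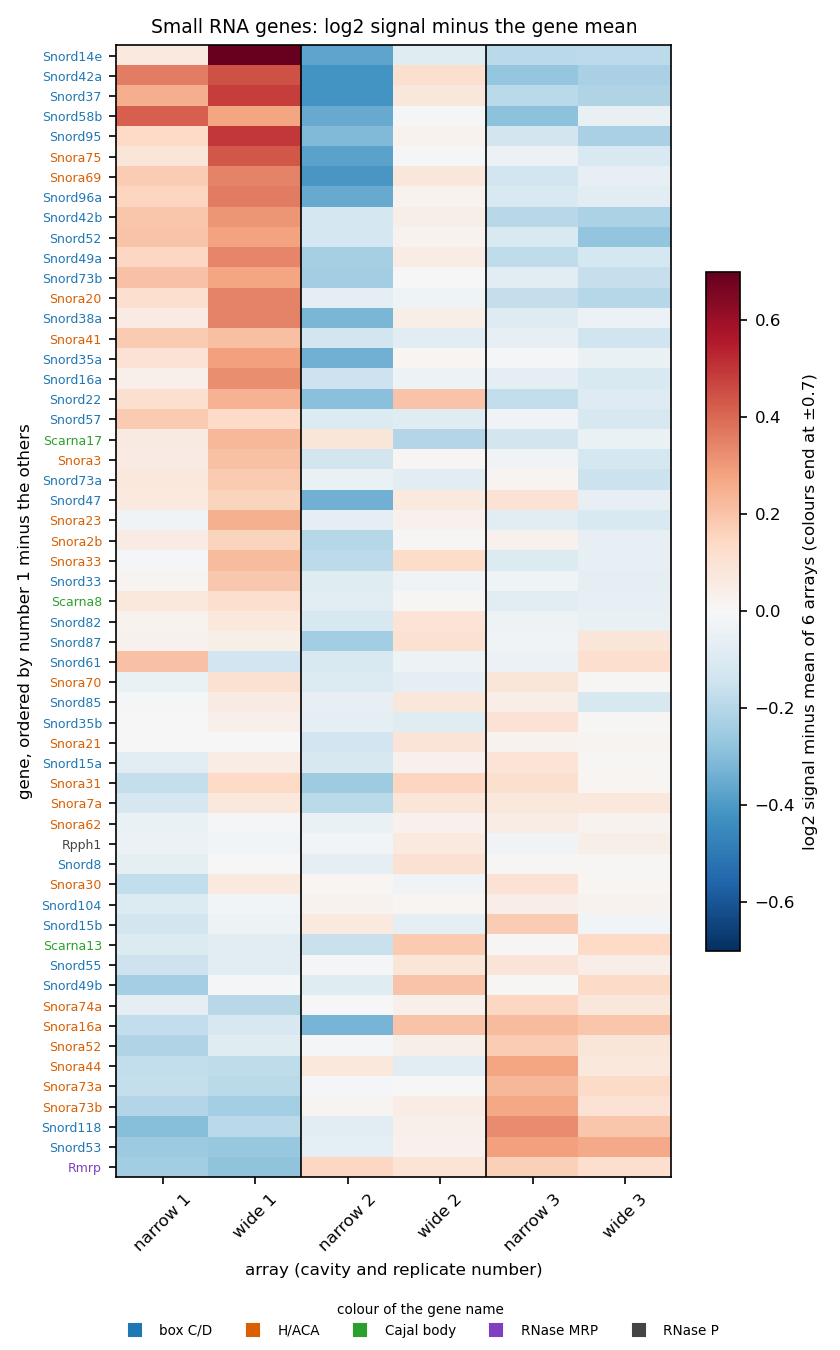
Deviation of each array from the gene's mean over the 6 arrays (log2, colour scale) for the 56 genes in rows, from the highest number 1 difference at the top to the lowest, with arrays in columns; narrow 1 and wide 1 mostly share their colours, at r = 0.81 between their differences, and stand apart from the other 4 columns.

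Rmrp, the RNA of the RNase MRP enzyme that cuts precursor ribosomal RNA, was the gene with the lowest difference in number 1. It measured 12.51, 12.90 and 12.92 in narrow 1 to 3 and 12.47, 12.85 and 12.87 in wide 1 to 3. Both arrays numbered 1 lay below all the others, by 0.39 ± 0.04 on the log2 scale, or 1.31-fold, while narrow and wide differed by 0.05 ± 0.14. Rpph1, the RNA of RNase P, which trims the 5′ end of precursor transfer RNA, is made by the same polymerase. It measured 12.77, 12.79 and 12.78 in narrow and 12.79, 12.87 and 12.85 in wide, and its number 1 difference was -0.05 ± 0.04. It was -0.07 without narrow 1 and -0.02 without wide 1, so Rpph1 lay near 0 in each case.

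The RNAs that act in cutting precursor ribosomal RNA went both ways in number 1. Snord118 (U8), which has a gene of its own outside any host, measured 7.25, 7.47 and 7.87 in narrow and 7.35, 7.58 and 7.74 in wide, with a number 1 difference of -0.37 ± 0.06. Its arrays numbered 1 were the lowest of each cavity. Snora73a and Snora73b (the U17 RNAs), both in Snhg3, had differences of -0.27 ± 0.04 and -0.33 ± 0.05. Snora73b measured 11.80, 12.02 and 12.27 in narrow and 11.76, 12.05 and 12.10 in wide. Snord22 (U22), in Snhg1, lay the other way, at 7.74, 7.33 and 7.46 in narrow and 7.87, 7.83 and 7.54 in wide, with a difference of 0.27 ± 0.09. The arrays numbered 1 and those of the other numbers overlapped for it, as wide 2 lay above narrow 1, and without narrow 2 the difference was 0.17. Snord14e (U14), in an intron of the chaperone gene Hspa8, had the largest positive difference of the 56, 0.62 ± 0.13 or 1.54-fold. It measured 9.06, 8.62 and 8.80 in narrow and 9.75, 8.90 and 8.81 in wide, so wide 1 stood well above narrow 1, and without wide 1 the difference was 0.35.

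The other box C/D RNAs were mostly higher in number 1. Of the 31 Snord genes, 23 had a positive number 1 difference, with a median of 0.192 against -0.024 over all genes. Snord42a and Snord42b both lie in introns of the ribosomal protein gene Rpl23a. Snord42a measured 7.66, 6.88 and 7.03 in narrow and 7.74, 7.41 and 7.07 in wide, a number 1 difference of 0.60 ± 0.10 or 1.52-fold. Snord42b measured 9.84, 9.52 and 9.45 in narrow and 9.95, 9.68 and 9.42 in wide, a difference of 0.38 ± 0.05. In both genes the arrays numbered 1 were the highest of the 6. Snord49a (0.36 ± 0.06) and Snord57 (0.24 ± 0.04) showed the same order, and Snord57 measured 11.46, 11.19 and 11.25 in narrow and 11.41, 11.20 and 11.17 in wide. Snord57 lies in an intron of Nop56, which encodes a core protein of the box C/D particle itself. Snord37, in the elongation factor gene Eef2, followed with 0.56 ± 0.10.

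Snord53, in the ribosome synthesis gene Wdr43, went against its class. It measured 9.14, 9.33 and 9.68 in narrow and 9.13, 9.43 and 9.66 in wide. Its arrays numbered 1 were the lowest and those numbered 3 the highest, and the number 1 difference was -0.39 ± 0.04.

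The H/ACA RNAs were divided, with 10 of 20 Snora genes positive, 10 negative and a median of -0.008. Snora41, in the elongation factor gene Eef1b2, measured 6.98, 6.67 and 6.74 in narrow and 7.01, 6.73 and 6.66 in wide, a difference of 0.30 ± 0.04. Snora20, in the chaperonin gene Tcp1, had 0.35 ± 0.06, and Snora69, in Rpl39, had 0.39 ± 0.08. For these 3 genes both arrays numbered 1 lay above the other 4. Snora44 lay lower in number 1, by 0.26 ± 0.05 on the log2 scale, with both arrays numbered 1 below the others. The 2 H/ACA RNAs of Snhg3 described above were lower as well.

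The Cajal body RNAs were measured as 3 genes. Scarna8 measured 6.71, 6.56 and 6.56 in narrow and 6.75, 6.64 and 6.58 in wide, with a number 1 difference of 0.15 ± 0.04. Scarna17 had 0.22 ± 0.09, with narrow 2 (11.02) above narrow 1 (11.00). Scarna13, in the noncoding host Snhg10, had -0.13 ± 0.07 and measured 10.57, 10.50 and 10.67 in narrow and 10.58, 10.85 and 10.80 in wide. The arrays numbered 1 stood apart for Scarna8 but not for the other 2, which rest on single arrays. Without wide 1 their differences were 0.08 for Scarna17 and -0.02 for Scarna13, without narrow 1 they were 0.36 and -0.24, and without wide 2 they were 0.12 and -0.06. Without narrow 2 that of Scarna13 was -0.20.

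The length of the RNA, which the choice of genes did not use, moved with the number 1 difference. Lengths in the RefSeq table ran from 45 to 325 bases with a median of 95, and 51 of the 56 RNAs were under 200 bases. Of the 23 RNAs under 80 bases, 19 had a positive number 1 difference, with a median of 0.237. Of the 15 from 80 to 120 bases, 11 were positive, with a median of 0.159. Of the 18 over 120 bases, 13 were negative, with a median of -0.084. Across the 56 genes, length and the number 1 difference had rho = -0.59 and r = -0.53, and rho was -0.59 within the narrow arrays and -0.57 within the wide arrays. Box C/D RNAs are the shorter class, with a median of 68 bases against 125 for H/ACA RNAs. For number 1, rho was -0.45 over the 31 box C/D genes and -0.56 over the 20 H/ACA genes. Within the narrow and the wide arrays it was -0.53 and -0.34 over the box C/D genes, and -0.50 and -0.65 over the H/ACA genes. Length had rho = 0.45 with the number 2 difference and 0.58 with the number 3 difference over the 56 genes. The differences of the numbers sum to 0 for each gene, so these are not separate from the result for number 1.

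Signal moved with the number 1 difference as well. The mean signal and the number 1 difference had rho = -0.46, and length and mean signal had rho = 0.41, over the same 56 genes. Over the 20 H/ACA genes these were -0.63 and 0.75, beside -0.56 for length and the number 1 difference. Over the 31 box C/D genes they were -0.26 and 0.23, beside -0.45. The parts of length and signal were not separated. Of the 56, 23 lay below the median signal of all genes. Silica columns of the kind named in the labels' protocol bind RNAs under about 200 bases poorly. Extraction yield and RNA quality per sample were not used here, and their part in the result was not tested.

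**Figure D4:**
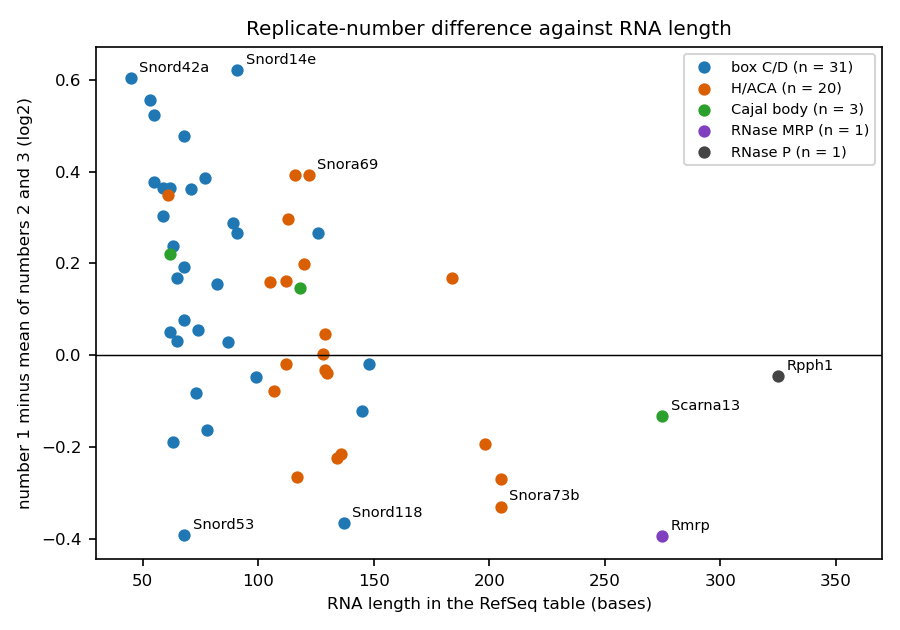
Number 1 difference (mean of the arrays numbered 1 minus the mean of the other 4, log2) against RNA length in bases from RefSeq for the 56 genes, coloured by class; most RNAs under 80 bases lie above 0 and most over 120 bases below, at rho = -0.59.

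RNAs within the span of the same host could be set beside each other, though a shared transcript was not checked. Of the 10 hosts with at least 2 measured RNAs, 8 had RNAs with the same sign in number 1. Snord95 (0.48 ± 0.10) and Snord96a (0.39 ± 0.07), both from Rack1, were both higher. In 2410006H16Rik the signs were opposite, 0.36 ± 0.06 for Snord49a and -0.19 ± 0.05 for Snord49b, at similar lengths of 62 and 63 bases. Snord49a measured 8.58, 8.20 and 8.26 in narrow and 8.78, 8.49 and 8.31 in wide, so in each cavity it was highest where Snord49b was lowest, in the array numbered 1.

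The host genes themselves differed less between numbers than the RNAs within their spans. For 28 of the small RNA genes the host was measured too, in 24 hosts, and the RNA had the larger number 1 difference in size in 22 of 28. The median size was 0.180 for the RNAs and 0.040 for the hosts, whose differences ran from -0.13 to 0.21. Rpl23a measured 12.70, 12.66 and 12.66 in narrow and 12.64, 12.66 and 12.67 in wide, a number 1 difference of 0.00 against the 0.60 of Snord42a. Wdr43 measured 12.63, 12.64 and 12.59 in narrow and 12.63, 12.61 and 12.60 in wide, a difference of 0.02 against the -0.39 of Snord53. Tcp1 had 0.05 against the 0.35 of Snora20. Between cavities, too, the RNA had the larger difference in size in 24 of 28, with medians of 0.074 for RNAs and 0.012 for hosts. The measured hosts lay at a median percentile of 98.7 of signal and the RNAs in them at 51.3, and the part of signal in this difference was not tested.

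**Figure D5:**
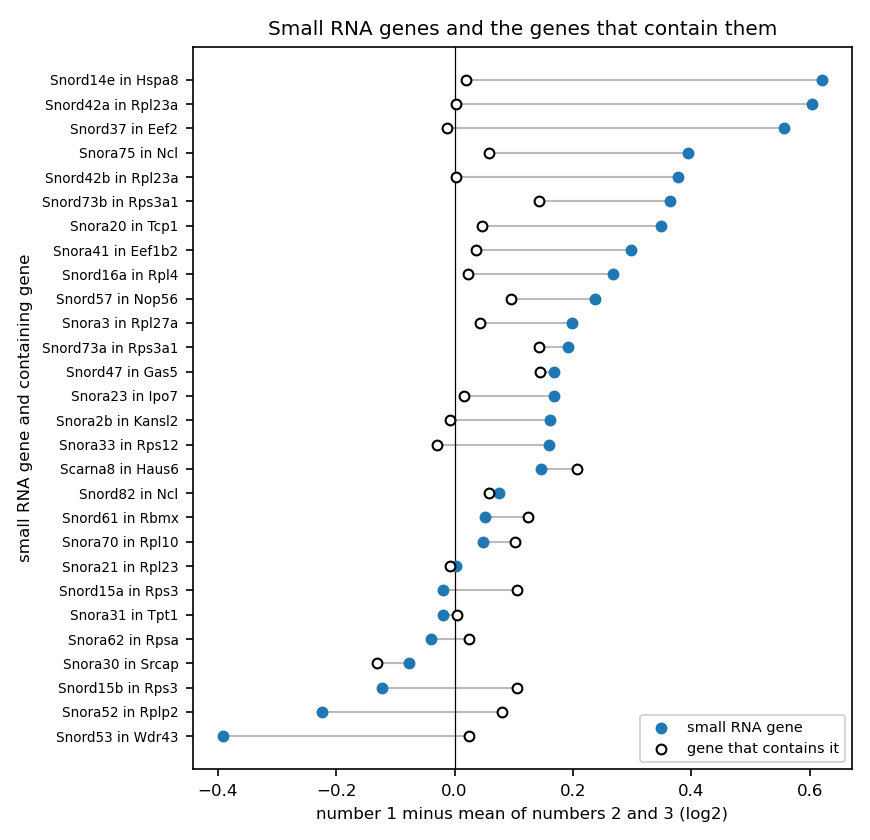
Number 1 difference (log2, horizontal) of each of the 28 small RNA genes with a measured host (filled points) and of the gene that contains it (open points), 1 pair to a row, joined by a line; the open points lie between -0.13 and 0.21 while the filled points spread further to both sides.

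Proteins that bind and process these RNAs, polymerase and ribosome synthesis factors, host genes and other noncoding RNAs were taken as lists. After adjustment, 0 of their measured genes passed in either comparison. The lists together held 117 distinct measured genes. At an unadjusted p under 0.05 between cavities, 2 of the 117 were lower in narrow (Rpp21 and Gas5, against 1.72% of all genes) and 1 was higher (Polr3k, against 1.68%), which is near or below the share over all genes. For number 1, 29 of the 117 had an unadjusted p under 0.05 (22.1% of all genes) and 21 passed with the variance trend (8.70% of all genes). Among the box C/D core and assembly proteins, 13 genes were measured, with a median number 1 difference of 0.046 and a median narrow minus wide difference of 0.024. Fbl, the fibrillarin methyltransferase, had -0.07 ± 0.04 between cavities, and the assembly factor Rpap3 had 0.07 ± 0.05. For number 1, 5 of the 13 had an unadjusted p under 0.05 (22.1% of all genes), and 4 passed with the variance trend (8.70% of all genes). Among the 7 H/ACA proteins the median number 1 difference was 0.073, all 7 were positive and 2 passed with the variance trend (8.70% of all genes). Gar1, a core H/ACA protein, had -0.08 ± 0.06 between cavities and the pseudouridine synthase Dkc1 had -0.06 ± 0.05. Among the 10 genes listed for the Cajal body the median number 1 difference was 0.024, and 1 passed with the variance trend, near the 8.70% of all genes. The list includes Usp1, which is not an established Cajal body protein. The scaffold Coil had 0.05 ± 0.04 between cavities and Wrap53, which brings RNAs to the Cajal body, had -0.05 ± 0.04.

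The 11 measured proteins of RNase P and RNase MRP had a median number 1 difference of 0.008, and 4 passed for number 1 with the variance trend (8.70% of all genes). Between cavities Rpp21 had -0.11 ± 0.04 and Rpp40 0.13 ± 0.07. The 14 genes of the RNA exosome and small RNA processing had 0.053, and 2 passed for number 1 with the variance trend (8.70% of all genes), with the poly(A) nuclease Parn at 0.08 ± 0.05 and the lariat debranching enzyme Dbr1 at 0.07 ± 0.05 between cavities. The 20 measured genes of the list of host genes had 0.036, and 5 passed for number 1 with the variance trend (8.70% of all genes). Among them Gas5, a noncoding host, had -0.20 ± 0.07 between cavities and Snhg11 -0.09 ± 0.06. RNA polymerase III and its factors (17 genes) had 0.037, and 1 passed in the same way, below the 8.70% of all genes, with the subunit Polr3k at 0.13 ± 0.05 and Snapc2, which helps start small nuclear RNA genes, at 0.08 ± 0.05 between cavities. RNA polymerase I and ribosome synthesis (21 genes) had 0.041, and 2 passed in the same way, near the 8.70% of all genes, with Taf1b, part of the initiation factor at ribosomal RNA genes, at 0.08 ± 0.06 and the polymerase subunit Polr1e at -0.06 ± 0.05 between cavities.

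Other noncoding RNAs, mainly transcripts of RNA polymerase III and small nuclear RNAs, were measured for 7 of the 14 genes listed. They include Terc, the telomerase RNA, which is of neither kind (-0.06 ± 0.04 in number 1). All 7 had a negative number 1 difference, as did Rmrp and Rpph1, and as did 12236 of the 19938 genes. Their median was -0.064, against -0.024 over all genes. Rnu6 (-0.01 ± 0.04), at a mean signal of 4.44, lay near the lowest value of the table (4.33). Vaultrc5, a vault RNA, measured 6.54, 6.87 and 7.27 in narrow and 6.62, 6.83 and 6.92 in wide, and its number 1 difference was -0.40 ± 0.09. Rny3, a Y RNA, had -0.25 ± 0.08, with narrow 2 (12.05) below wide 1 (12.16). The smallest unadjusted p values of these genes between cavities belonged to the minor spliceosome RNA Rnu12 (0.06 ± 0.04) and the spliceosome RNA Rnu6 (-0.05 ± 0.04). None of the 7 passed the adjusted threshold, and 1, Vaultrc5, passed for number 1 with the variance trend (8.70% of all genes).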

How the data were processed

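Per the labels, total RNA of 30 pooled embryos per sample was hybridized to 6 arrays. The deposited values are log2 signals made by the authors, with the scale read from their range (4.33 to 14.31); the sources used here do not give background correction or normalization, and no detection call came with the values. Any scaling between arrays would remove a change in total RNA. Of 28853 rows, 21789 named 1 gene (19938 genes); no filter on dim genes was applied.

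Differences were tested with limma 3.58.1 (lmFit, eBayes, R 4.3.3), two-sided, adjusted by Benjamini-Hochberg over all genes at 0.05, with no covariate for the cavities and cavity as covariate for replicate numbers. The script was tested on simulated data. Errors are standard errors of the fit. Hosts are the shortest longer RefSeq genes (GRCm38.p6) whose span holds the small RNA gene, with strand not considered. Same-numbered arrays' deviations from their group means correlated at 0.516, 0.176 and 0.272 over all genes, each over 0.1. Same-numbered arrays were therefore taken as pairs in the pair counts and in a fit with the number as a block. The main cavity fit has no block. Narrow 2 with wide 3 reached 0.178, so the pairing is not clear for number 2, and it is weaker for number 3 than for number 1.

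The genes and lists were chosen with earlier results of these data known. Genes named are Rmrp, Rpph1, Scarna genes and RNAs of ribosomal RNA cleavage, the 4 smallest p per direction between cavities, the 6 Snord and 6 Snora with the smallest F test p, the 2 smallest p per list and 3 hosts; others were named after their values were seen. The pyrimidine search was added after the data were seen. Alternatives covered row choice, signal filter, normalization, variance model, block and leaving out arrays.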

Additional observations from a re-analysis of the deposited data

How the results depend on the processing

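The pairing by number rests most on number 1. With the replicate number as a block, the genes lower in narrow at an unadjusted p under 0.05 went from 3 to 11 and those higher from 0 to 1. They were 1 lower with columns centred on their medians, 5 lower with the variance trend and robust shrinkage, and, in a fit chosen after seeing the data, 6 lower and 1 higher without both arrays numbered 1. At an unadjusted p under 0.05, 678 of all genes and 3 of the 56 differed between cavities, and by the F test over numbers 3592 and 29. By that F test, adjusted, 2 genes passed with the mean of a gene's rows, 3 with the row of lowest mean, 2 over all rows and 2 without the cavity term. Among genes at or above the median signal 696 passed, 14 of them from the 56, and with the variance trend 1132 and 24. For number 1, 1410 genes and 18 of the 56 passed at or above the median signal, 1734 and 28 with the variance trend, 32 genes over all rows and 1 without the cavity term. Among genes at or above the median signal, 14 of the 56 were higher in number 1 at an unadjusted p and the median was 0.028. For number 2, 46 genes passed at or above the median signal, 127 and 1 of the 56 with the variance trend, and 2 without the cavity term. For number 3 these were 15 and 2 of the 56 at or above the median signal and 147 and 8 with the variance trend. The cause was not tested. Leaving out each array in turn, genes lower in narrow ranged from 0 to 9 and higher from 0 to 2, with medians from -0.122 to -0.035. For the F test, 0 to 6 genes passed and 23 to 36 of the 56 had an unadjusted p under 0.05. For number 1, 0 to 7 genes and 0 to 1 of the 56 passed, 17 to 27 were higher and 9 to 13 lower, with medians from 0.053 to 0.138. For number 2, 0 to 3 genes passed, with medians from -0.121 to -0.013. For number 3, 0 to 1 genes passed, with medians from -0.133 to 0.077, positive without wide 2 or without wide 3. Of 352 values of genes named by rule, 325 kept both sign and call, 4 changed sign (Snora74a and Snord35b between cavities) and 23 moved past the threshold. These values cover 26 genes named by rule, and the number 1 differences of the 19 that have one there changed sign in 0 settings.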

Other observations

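Another 41 array rows name several genes, at least 1 of them a small nucleolar or Cajal body RNA gene, and entered no comparison above. Of these, 24 name the imprinted copies Snord116l1 and Snord116l2 together. The 24 had number 1 differences between -0.31 and -0.20 and were all lower in narrow than in wide, at a median of -0.150. Their sign in number 1 was opposite to that of most box C/D genes above, of which 23 of 31 were positive. They are copies with near-identical sequence, so they are not 24 separate measurements. Of the other 17 rows, 14 had a positive number 1 difference, at a median of 0.175, and 15 were lower in narrow. These differences were not tested here as gene values.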
